A study of Mus musculus with 3 samples.

Results

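Ribosome biogenesis genes and MYC were followed in 3 RNA sequencing libraries of mouse JB6 P+ cells, an epidermal line that tumour promoters can transform. The set holds the ribosomal RNA precursor row Rn45s, the transcription factor gene Myc, its partner Max, and genes for RNA polymerase I, nucleolar proteins and ribosome assembly factors. Members were chosen by gene symbol from a list of 45, of which 44 were found among the 24421 rows of the count table. The remaining gene, Utp4, is listed there under its older symbol Cirh1a and is described apart from the counts. One culture served as control, another received TPA (10 ng/mL), a phorbol ester used as a skin tumour promoter, and the last received the same TPA together with the triterpenoid CDDO (50 nM). Dosing of the treated cultures, every other day, lasted 5 days with 1% serum in the medium, whereas routine culture used 10% serum. For the control culture the sources used here give no serum level, time or vehicle, so TPA cannot be told apart from these in comparisons with control. With 1 library in each group, the spread between cultures is unknown, no test was possible, and all intervals describe counting error alone.

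The libraries held 8190078 (control), 7813035 (TPA) and 7872089 (CDDO+TPA) reads assigned to genes, and 13100 genes with at least 1 count per 1000000 assigned reads (CPM) in at least 1 library were compared. All 44 members passed this filter. The labelled cell type is skin epithelium, but only 7 of 19 keratinocyte markers were among the compared genes, and Krt5, Krt1 and Epcam had 0 reads in every library. Summed keratinocyte markers reached 111, 153 and 192 CPM, against 3225, 2071 and 2585 CPM for 12 fibroblast markers. Here and below, values are in the order control, TPA, CDDO+TPA. In bulk RNA a lower level can mean less RNA per cell or fewer cells that express the gene, and these cannot be told apart.

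Ribosome synthesis starts in the nucleolus, where RNA polymerase I copies the ribosomal DNA into a long precursor. Small nucleolar RNAs with their proteins modify the precursor, a small subunit processome cuts out the 18S part, and separate factors build the large subunit. MYC, bound to DNA as a dimer with MAX, is a known activator of genes at each of these steps. The dimer recognises the hexamer CACGTG, called an E-box.

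The E-box was found in the promoter windows of 9 of the 35 members present in the RefSeq promoter table (25.7%), against 8.09% of 27025 genes in that table and 11.7% of the 9870 that were also compared here. A window runs from 250 bases before to 50 bases after an annotated start site. The hexamer reads the same on both strands, so 1 search covers both. The sites are shown because promoter sequence was not used to choose the members. The list was built around MYC and steps whose genes it is known to activate, so the share is not independent of that choice. Each line gives 30 bases of the gene's strand in GRCm38.p6, 5′ to 3′, with the E-box in capitals.
Max, chr12:76962234-76962263, minus strand: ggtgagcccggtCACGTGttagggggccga
Nop2, chr6:125131811-125131840, plus strand: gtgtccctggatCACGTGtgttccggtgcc
Rrn3 (far site), chr16:13780472-13780501, plus strand: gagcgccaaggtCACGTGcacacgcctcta
Rrn3 (near site), chr16:13780639-13780668, plus strand: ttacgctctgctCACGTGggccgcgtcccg
Pes1, chr11:3963965-3963994, plus strand: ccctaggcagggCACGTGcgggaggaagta
Wdr43, chr17:71616220-71616249, plus strand: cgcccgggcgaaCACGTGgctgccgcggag
Tsr1, chr11:74898092-74898121, plus strand: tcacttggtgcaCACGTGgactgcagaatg
Grwd1, chr7:45830740-45830769, minus strand: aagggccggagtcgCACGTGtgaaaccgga
Utp20, chr10:88826765-88826794, minus strand: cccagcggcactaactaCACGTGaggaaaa
Mybbp1a, chr11:72441347-72441376, plus strand: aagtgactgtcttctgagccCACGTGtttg
Utp4, not among the 35, chr8:106893643-106893672, plus strand: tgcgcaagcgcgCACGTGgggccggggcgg
In Nop2 and Rrn3 the hexamer lay before the start site, 60 bases for Nop2 and 215 and 48 bases for Rrn3, counted to its first base. The E-box of Max spans the start site. In Pes1, Utp4, Wdr43, Tsr1, Grwd1, Utp20 and Mybbp1a its first base was at position 3, 16, 18, 25, 35, 38 and 41, counting the start site as 1. Counted only before the start site, the E-box was in 5.71% of the members, below the 9.86% of compared genes, so the higher share rests on bases after the start. Members with an E-box did not share a direction in TPA against control. There, Utp20 was 1.37-fold lower, Mybbp1a 1.16-fold higher, Max 1.23-fold higher and Rrn3 within counting error of equal. In CDDO+TPA against TPA, counting intervals lay below 1 for Max, Nop2, Pes1, Wdr43, Grwd1 and Mybbp1a. Those of Rrn3, Tsr1 and Utp20 held 1. In CDDO+TPA against control they lay below 1 for Nop2, Pes1, Wdr43, Tsr1 and Utp20. Those of Max, Rrn3, Grwd1 and Mybbp1a held 1. A match of letters does not show that MYC binds there.

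No member reached a 2-fold difference in any comparison. A size rule called a gene when its ratio was at least 2-fold and the 95% counting interval of the ratio excluded 1. Under it, 0 of 44 members were called in TPA against control, where 9.75% of all compared genes were higher and 6.09% lower. In CDDO+TPA against TPA 0 of 44 were called, with 8.07% of all genes higher and 7.95% lower, and in CDDO+TPA against control 0 of 44, with 8.24% and 3.61%. The members are abundant, and among the 9891 genes with a mean of at least 10 CPM the 2-fold shares were smaller. TPA against control had 3.91% higher and 4.85% lower, CDDO+TPA against TPA had 5.35% and 2.35%, and the shares were 5.23% and 1.76% in CDDO+TPA against control. With the size lowered to 1.5-fold, 2 members were lower in TPA against control (13.8% of all genes), 1 was lower in CDDO+TPA against TPA (12.9%), and 3 were lower in CDDO+TPA against control (8.78%). None was higher under that rule, where the shares of all genes were 15.6%, 15.4% and 13.5%. Among the abundant genes the 1.5-fold shares were 14.0%, 8.12% and 7.51% lower and 10.6%, 13.9% and 11.1% higher, in the same order of comparisons.

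**Figure D1:**
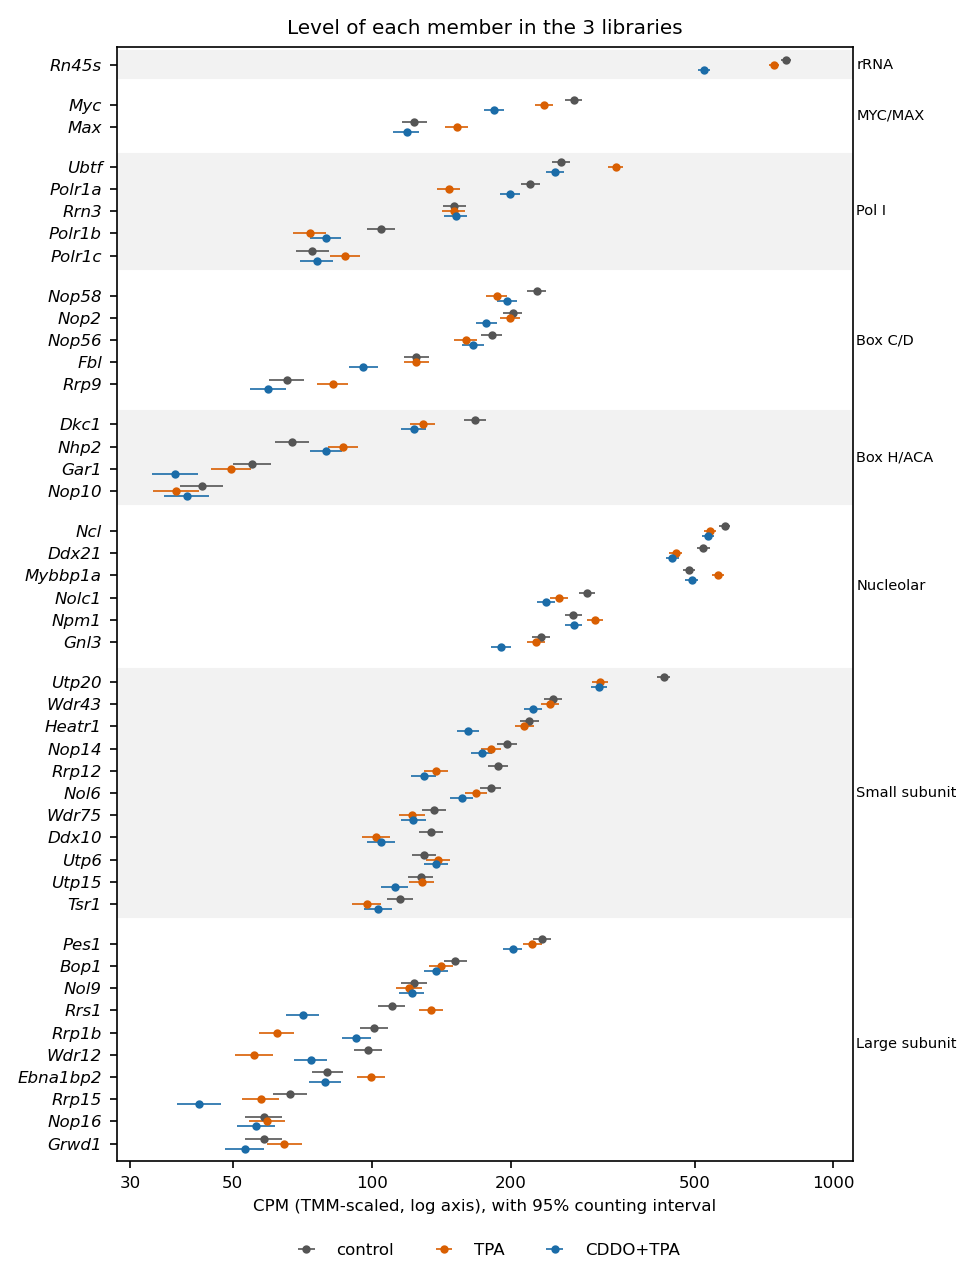
Level of the 44 members in each library, in CPM scaled by TMM factors on a log axis, grouped by role. Points are single libraries and bars are exact 95% counting intervals; for most members the 3 points lie close together, and Rn45s, Myc and Rrs1 are lowest in CDDO+TPA.

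Differences between libraries were small. The 43 protein-coding members together had 7913, 7446 and 6880 CPM. Their sum was 1.06-fold lower (95% counting interval 1.05 to 1.08) in TPA than in control and 1.08-fold lower (1.07 to 1.10) in CDDO+TPA than in TPA. Between CDDO+TPA and control the sum was 1.15-fold lower (1.14 to 1.16). The median log2 fold change of the 44 members was -0.09, -0.10 and -0.17 in TPA against control, CDDO+TPA against TPA and CDDO+TPA against control, beside 0.00, 0.01 and -0.02 for all compared genes and -0.04, 0.02 and -0.04 for the abundant genes. In CDDO+TPA against control the counting interval lay below 1 for 29 members (65.9%) and above 1 for 1 member, against 29.3% and 26.4% of all genes. In TPA against control it lay below 1 for 19 members and above 1 for 9, where 32.1% and 30.7% of all genes did. In CDDO+TPA against TPA the counts were 21 below and 3 above, with 30.5% and 32.4% of all genes. The same interval shares among abundant genes were 38.1%, 31.3% and 34.6% below 1 and 30.4%, 36.3% and 28.1% above 1, in TPA against control, CDDO+TPA against TPA and CDDO+TPA against control. The share of members below 1 was thus close to that of abundant genes in TPA against control (43.2% beside 38.1%) and further from it in the others (47.7% and 65.9%). Whether an interval excludes 1 also depends on read number, for which the abundant genes were not matched to the members. Scaling moves values of this size: the median in TPA against control ranged from -0.10 to -0.03 over the scalings, filters and prior counts tried.

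**Figure D2:**
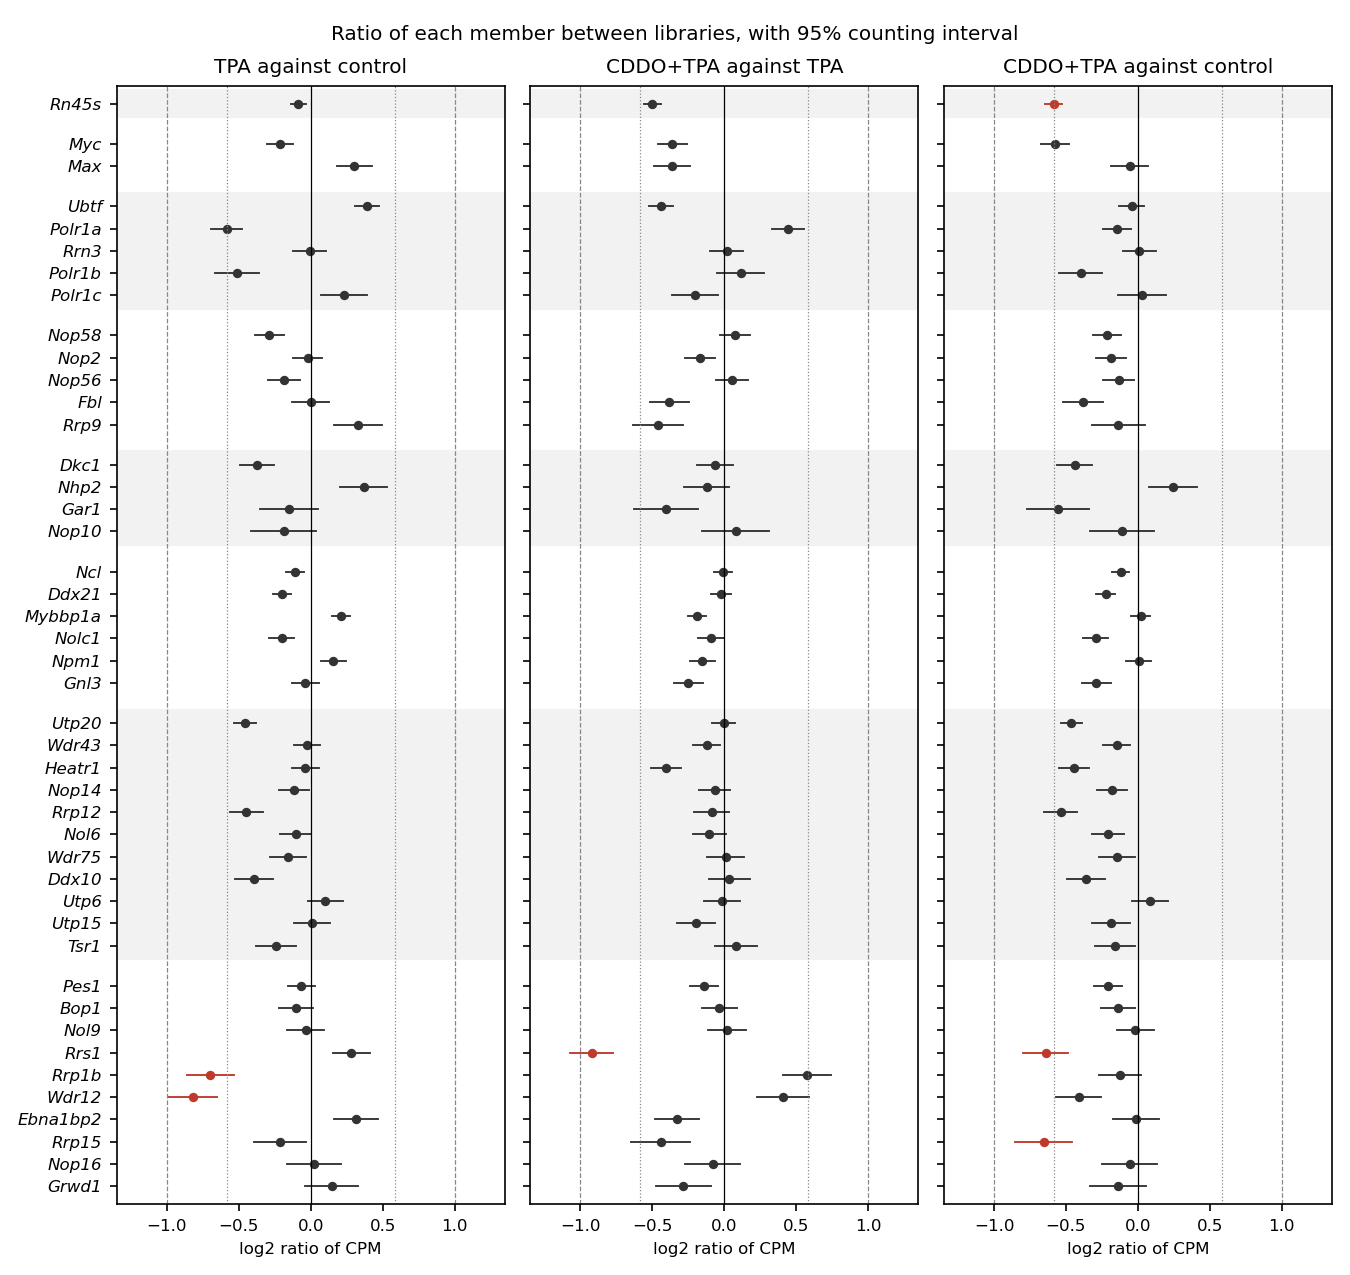
Log2 ratio of CPM for each member in the 3 comparisons, with 95% counting intervals, in the same order of roles. Dotted lines mark 1.5-fold and dashed lines 2-fold; red points passed 1.5-fold with an interval that excludes equality, and no point lies beyond a dashed line.

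Rn45s, the row named for the ribosomal RNA precursor (chr17:39842997-39848829, plus strand, mm10), has 5833 exonic bases and held 6318, 5914 and 4145 reads. Its counts do not tell reads of the precursor from reads of mature ribosomal RNA cut from it. They are therefore not a level of the precursor alone. The reads were 0.0771%, 0.0757% and 0.0527% of the assigned reads. Exact Clopper-Pearson intervals were 0.0753 to 0.0791%, 0.0738 to 0.0777% and 0.0511 to 0.0543%. Control and TPA were close, and the CDDO+TPA library was low. Scaled to CPM, the row was 1.06-fold lower (1.02 to 1.10) in TPA than in control and 1.41-fold lower (1.36 to 1.47) in CDDO+TPA than in TPA. Against control, CDDO+TPA was 1.501-fold lower (1.44 to 1.56). That value sits at the 1.5-fold limit and falls short of it under 5 alternative settings.

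The sources used here do not give how ribosomal RNA was removed from these total RNA libraries. The row held 1.08, 1.01 and 0.711 reads per exonic base. Removal of duplicates by position limits how many reads such a row can hold, and its part in these values was not tested. Rmrp, the RNA of an endonuclease that cuts the precursor, had 18, 24 and 8 reads, and Rpph1, the RNA of ribonuclease P, had 34, 18 and 12. Both structural RNAs were lowest in CDDO+TPA, on few reads. Malat1, a long nuclear RNA, had 423, 352 and 349.8 CPM, and so was close to equal in TPA and CDDO+TPA. Of the rows listed as holding ribosomal or other structural RNA, 6 were compared, Rn45s and Malat1 among them. Their median log2 fold change in CDDO+TPA against TPA was -0.50, from -1.37 to -0.01, with Malat1 at the high end. Against control it was -0.55, from -1.34 to -0.17, so the lower level in CDDO+TPA was not particular to Rn45s. The part of library preparation in the lower Rn45s share was not tested.

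Myc encodes the transcription factor that drives growth and ribosome synthesis (chr15:61985341-61990361, plus strand). It had 2196, 1883 and 1452 reads, or 274, 236 and 184 CPM. Control was highest and CDDO+TPA lowest, with counting intervals that excluded 1 for every pair of libraries. The level was 1.16-fold lower (1.09 to 1.23) in TPA than in control, 1.28-fold lower (1.20 to 1.38) in CDDO+TPA than in TPA, and 1.49-fold lower (1.39 to 1.59) in CDDO+TPA than in control. Pvt1, a noncoding gene next to Myc on the chromosome, was named after its values were seen, and had 96.8, 75.2 and 59.4 CPM. It was 1.63-fold lower (1.45 to 1.83) in CDDO+TPA than in control.

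Max, the obligate partner of MYC, had 124, 153 and 119 CPM. TPA was the high library, 1.23-fold above control (1.13 to 1.34), and CDDO+TPA and control were within counting error, 1.04-fold apart (0.951 to 1.14). Of 17 compared genes of the MYC network, 1 was higher and 0 lower past 2-fold in TPA against control, where 9.75% and 6.09% of all genes were. It was Mxi1, which encodes a MAX partner that opposes MYC, with 44.3, 96.0 and 84.3 CPM. In both treated libraries Mxi1 was well above control, 2.17-fold (1.91 to 2.47) in TPA. Mxd3, another such partner, was named after its values were seen. Its reads numbered 8, 16 and 76, a ratio of 4.79 (2.77 to 8.81) for CDDO+TPA over TPA. It was the single network gene past 2-fold in that comparison, where 8.07% of all genes were higher and 7.95% lower. Against control, Mxd3 was again the single one, 9.65-fold higher (4.66 to 23.15) on the few reads given, beside 8.24% and 3.61% of all genes.

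RNA polymerase I genes went different ways. Polr1a, the largest catalytic subunit, had 220.3, 147 and 199 CPM, low in TPA alone. Its log2 fold change was -0.58 in TPA against control, just short of the 1.5-fold rule (interval of the ratio 1.39 to 1.62 lower), and it was 1.36-fold higher (1.26 to 1.46) in CDDO+TPA than in TPA. Polr1b, the second-largest subunit, had 105, 73.4 and 79.5 CPM, low in both treated libraries.

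Ubtf, the factor that opens and organises the ribosomal DNA, had 257, 338 and 249.2 CPM. TPA was high, 1.31-fold above control (1.24 to 1.39), whereas control and CDDO+TPA were 1.03-fold apart (0.969 to 1.10). Polr1c, a subunit shared with RNA polymerase III, had 74.4, 87.4 and 75.9 CPM, also high in TPA. Rrn3, which recruits the polymerase to the promoter, had 151, 150.3 and 152 CPM. Its counting intervals held 1 in all 3 comparisons. Of 9 other polymerase I factors compared, 0 passed 2-fold in any comparison, and their medians were 0.05, -0.06 and -0.12 on the log2 scale. Past 2-fold, 9.75%, 8.07% and 8.24% of all genes were higher and 6.09%, 7.95% and 3.61% lower. At such shares a list of 9 would hold few calls.

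Box C/D proteins act with small nucleolar RNAs in methylation of the precursor. Nop58 and Nop56, paralogous core proteins, had 228, 186 and 196 CPM and 182, 160 and 166 CPM. Both were highest in control, and TPA and CDDO+TPA were within counting error. Fbl, fibrillarin, the methyltransferase of the complex, had 125, 125 and 95.9 CPM. Its control and TPA levels were equal, and CDDO+TPA was 1.30-fold lower (1.18 to 1.43) than TPA. Rrp9, a protein of the U3 particle, had 65.5, 82.2 and 59.7 CPM, high in TPA and 1.38-fold lower (1.22 to 1.55) in CDDO+TPA. Nop2, grouped here as a methyltransferase of the large subunit RNA and not as a box C/D protein, had 202, 199 and 177 CPM. These 5 genes differed in which library was high, by at most 1.38-fold in any pair of libraries.

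Box H/ACA proteins act with small nucleolar RNAs in pseudouridine formation. Dkc1, dyskerin, the pseudouridine synthase, had 167, 129 and 123 CPM, and control was 1.36-fold above CDDO+TPA (1.25 to 1.48). Gar1 had 55.0, 49.6 and 37.5 CPM and was 1.47-fold lower (1.26 to 1.71) in CDDO+TPA than in control. Nhp2, in contrast, had 67.3, 86.8 and 79.7 CPM. It was the member whose interval lay above 1 in CDDO+TPA against control, 1.19-fold (1.05 to 1.33). Nop10, the smallest of the 4, had 42.9, 37.7 and 39.8 CPM, with intervals that held 1 in every comparison. Nhp2 shares 42 exonic bases with Rmnd5b on the other strand, which the counting could not separate.

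Abundant nucleolar proteins summed to 2389, 2343 and 2180 CPM. Ncl, nucleolin, had 581, 539 and 535 CPM and was 1.08-fold lower (1.03 to 1.12) in TPA than in control. Ddx21, an RNA helicase of the nucleolus, had 523, 455 and 448 CPM, and Nolc1, a chaperone of small nucleolar particles, had 293, 254 and 239 CPM. These 3 were highest in control. Mybbp1a, a nucleolar binding protein of MYB, had 487, 563 and 493 CPM, and Npm1, nucleophosmin, had 273, 305 and 274 CPM. Both were high in TPA by 1.16-fold and 1.12-fold, and their control and CDDO+TPA levels were within counting error. Gnl3, nucleostemin, had 233, 227 and 191 CPM, with CDDO+TPA low. Per exonic length, Npm1 was the highest member, at 159, 177 and 159.5 CPM per kilobase, and Rrp1b the lowest, at 19.9, 12.3 and 18.2. With over 1 read per exonic base, Npm1 is also a row whose counts removal of duplicates could narrow. Mybbp1a held 0.948, 1.09 and 0.946 reads per exonic base, over 1 in TPA, where it was high. Other members came near 1, such as Gnl3 with 0.962 in control.

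Genes of the small subunit processome summed to 2103, 1846 and 1736 CPM, highest in control. The sum of its 11 genes was 1.14-fold lower (1.11 to 1.17) in TPA and 1.21-fold lower (1.18 to 1.24) in CDDO+TPA than in control. Utp20, a large scaffold protein, had 429, 312 and 311 CPM, and Rrp12 had 188, 138 and 129.5 CPM. In each, both treated libraries were low and alike, with Rrp12 1.45-fold lower (1.34 to 1.57) in CDDO+TPA than in control. Ddx10, an RNA helicase, had 134, 102 and 105 CPM and was likewise lower in both treated libraries.

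Heatr1, which belongs to the processome module that links it to polymerase I, had 219.5, 214 and 162 CPM and was low in CDDO+TPA alone, 1.32-fold (1.23 to 1.42) below TPA. Its module partners Wdr43, Wdr75 and Utp15 had log2 fold changes between -0.19 and 0.01 in both comparisons with TPA in them, whereas Utp4, of the same module, had 0.41 and -0.44. Nop14, Nol6, Utp6 and Tsr1 had log2 fold changes between -0.24 and 0.10 in all 3 comparisons. For Tsr1, a factor of late small subunit maturation, 34.2% of exonic bases overlap Srr on the other strand, so part of its reads could not be assigned. Utp4, read from the row of its older symbol, had 149, 198 and 145.5 CPM. TPA was its high library, 1.33-fold (1.23 to 1.43) above control and 1.36-fold (1.26 to 1.47) above CDDO+TPA.

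The members past 1.5-fold were, apart from Rn45s, all factors of the large subunit. Rrs1, which helps bring the 5S particle into the subunit (chr1:9545408-9547455, plus strand), had 885, 1069 and 559 reads, or 110.4, 134 and 70.8 CPM. TPA was its high library and CDDO+TPA its low one. It was 1.89-fold lower (1.71 to 2.10) in CDDO+TPA than in TPA, the largest fold among the members in any comparison, and 1.56-fold lower (1.40 to 1.74) than in control. Rrp15 (chr1:186721087-186749358, minus strand), needed for large subunit precursors, had 66.6, 57.5 and 42.3 CPM. It was 1.58-fold lower (1.37 to 1.81) in CDDO+TPA than in control.

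Wdr12 (chr1:60076868-60098500, minus strand) forms a trimer with Pes1 and Bop1 that is needed to process the large subunit RNA. It had 787, 443 and 583 reads, or 98.2, 55.6 and 73.9 CPM, and was 1.77-fold lower (1.57 to 1.99) in TPA than in control. Its partners differed less: Pes1 had 233, 223 and 202 CPM and Bop1 152, 141 and 138 CPM. Intervals of both partners held 1 in TPA against control. Rrp1b, a nucleolar factor of large subunit processing (chr17:32036162-32062862, plus strand), had 810, 496 and 731 reads, or 101, 62.3 and 92.6 CPM. TPA was low, 1.62-fold below control (1.45 to 1.82), and CDDO+TPA was 1.49-fold above TPA (1.33 to 1.67).

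The other large subunit members stayed closer. Ebna1bp2 had 80.1, 99.8 and 79.3 CPM and Grwd1, a chaperone of a ribosomal protein, had 58.4, 64.7 and 53.1 CPM, both highest in TPA. Nop16 and Nol9, a kinase that acts on the cut precursor, had intervals that held 1 in all 3 comparisons. Ebna1bp2 shares 20.4% of its exonic bases with the row D4Ertd617e on the same strand, which held 0, 4 and 0 reads.

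Exonic length was set beside the differences. Across the 43 protein-coding members, of 738 to 8831 exonic bases, Spearman's rho between length and log2 fold change was -0.31 in TPA against control. In CDDO+TPA against TPA it was 0.34, and in CDDO+TPA against control -0.06. The first pair share the TPA library, and members in each share both libraries and their depth. For the 9891 genes with a mean of at least 10 CPM the values were -0.07, 0.10 and 0.03. Many members depart from such an order. Ubtf, Mybbp1a and Ebna1bp2 are longer than the median member (2911 bases) and were higher in TPA than in control, and Nop58 and Dkc1 are shorter and were lower.

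**Figure D3:**
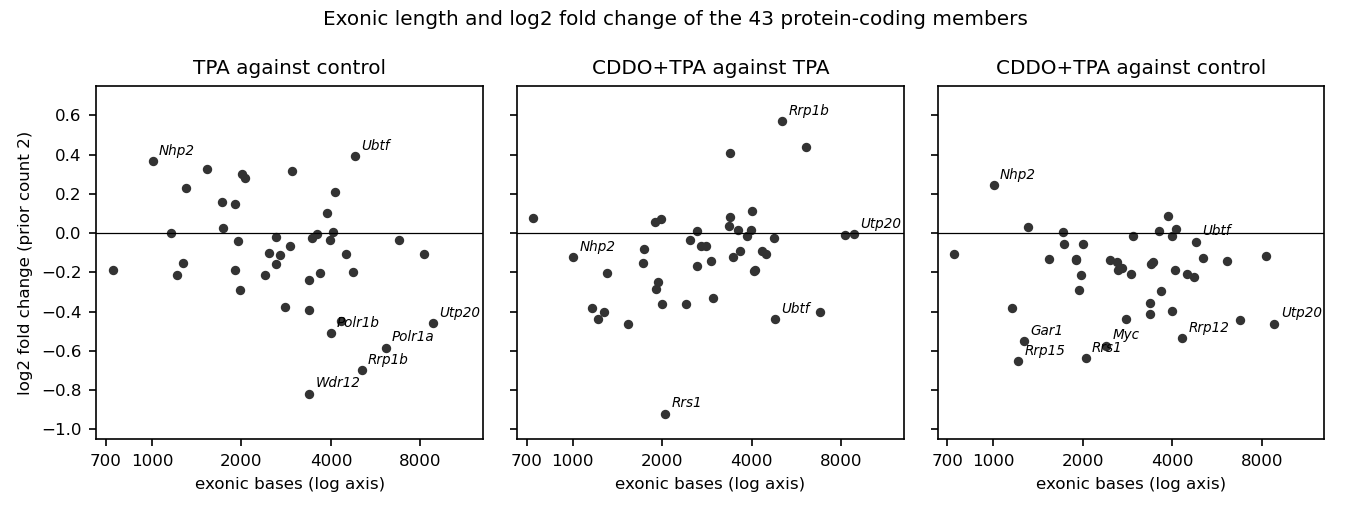
Exonic length of the 43 protein-coding members (log axis) against log2 fold change with a prior count of 2, 1 panel per comparison and 1 point per gene. In TPA against control the lowest points, Wdr12, Rrp1b and Polr1a, lie at long genes and Ubtf is a long gene among the highest.

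Several members carry small nucleolar RNA genes inside them. By GENCODE M21 on the same build, 7 of the 43 protein-coding members span at least 1 such gene on their own strand (16.3%), against 1.76% of 11986 protein-coding genes compared. These were Nop56, Nop58, Dkc1, Ncl, Wdr43, Gnl3 and Tsr1. Nop56 spans Snord57 and Snord110, Nop58 spans Snord11 and Snord70, and Ncl spans Snora75 and Snord82. Their log2 fold changes ran from -0.38 for Dkc1 to -0.03 for Wdr43 in TPA against control, where the intervals of Wdr43 and Gnl3 held 1. In the comparison of CDDO+TPA with TPA they lay on both sides of 0, from -0.25 for Gnl3 to 0.08 for Tsr1. In CDDO+TPA against control all 7 were lower, from -0.44 for Dkc1 to -0.12 for Ncl. Their intervals lay below 1, as did those of 65.9% of all members and 29.3% of all compared genes.

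Other genes of the pathway, from lists drawn up with the members, also had few large differences. Past 2-fold, 3.91% of abundant genes were higher and 4.85% lower in TPA against control. The shares were 5.35% and 2.35% in CDDO+TPA against TPA, and 5.23% and 1.76% in CDDO+TPA against control. At such shares, lists of this length would hold few calls. Of 36 other small subunit factors, 0 passed 2-fold in any comparison, and their medians were -0.13, -0.17 and -0.28. Of 46 other large subunit factors, 1 was lower in CDDO+TPA against control and 0 passed in the other comparisons, with medians of -0.07, -0.17 and -0.20. That gene was Urb1, a scaffold of large subunit assembly, with 126, 84.2 and 60.3 CPM, 2.09-fold lower (1.87 to 2.34). Of 16 other rRNA modification factors and 21 RNA polymerase III factors, 0 passed 2-fold in any comparison. Among 17 exosome and exonuclease genes, Exosc6, an exosome core subunit, had 20.1, 41.9 and 26.5 CPM and was the single call, 2.09-fold higher (1.72 to 2.54) in TPA than in control.

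Cytosolic ribosomal protein genes summed to 7416, 8276 and 7328 CPM, high in TPA. Of 78 compared, 0 were higher past 2-fold in any comparison, and 1 was lower in each comparison of CDDO+TPA, on few reads: Rpl34 (31, 33 and 16) against TPA and Rps27 (24, 21 and 11) against control, both named after their values were seen. Medians of the 78 were 0.18, -0.20 and -0.01. Past 2-fold, 9.75%, 8.07% and 8.24% of all genes were higher and 6.09%, 7.95% and 3.61% lower, in the same order of comparisons. MYC targets outside the ribosome had medians of 0.01, -0.06 and -0.05 over 33 genes. Beside these shares of all genes, 1 of the 33 passed 2-fold, in CDDO+TPA against control. It was Tfrc, the transferrin receptor, with 108, 196 and 252 CPM, 2.32-fold higher (2.14 to 2.52).

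Cell cycle genes differed by more in the same libraries. Their sum over 31 genes was 1947, 1718 and 3972 CPM, and 21 of 31 were higher and 0 lower past 2-fold in CDDO+TPA against TPA, with a median log2 fold change of 1.48, where 8.07% of all genes were higher. Kif11, a spindle motor, had 49.7, 12.6 and 121.6 CPM, and Mki67, a proliferation marker, had 162, 85.2 and 459 CPM. CDDO+TPA was the high library for both. In that library the summed ribosome biogenesis members, Rn45s and Myc were at their lowest. The part of cell cycle differences in the levels of the members was not tested.

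**Figure D4:**
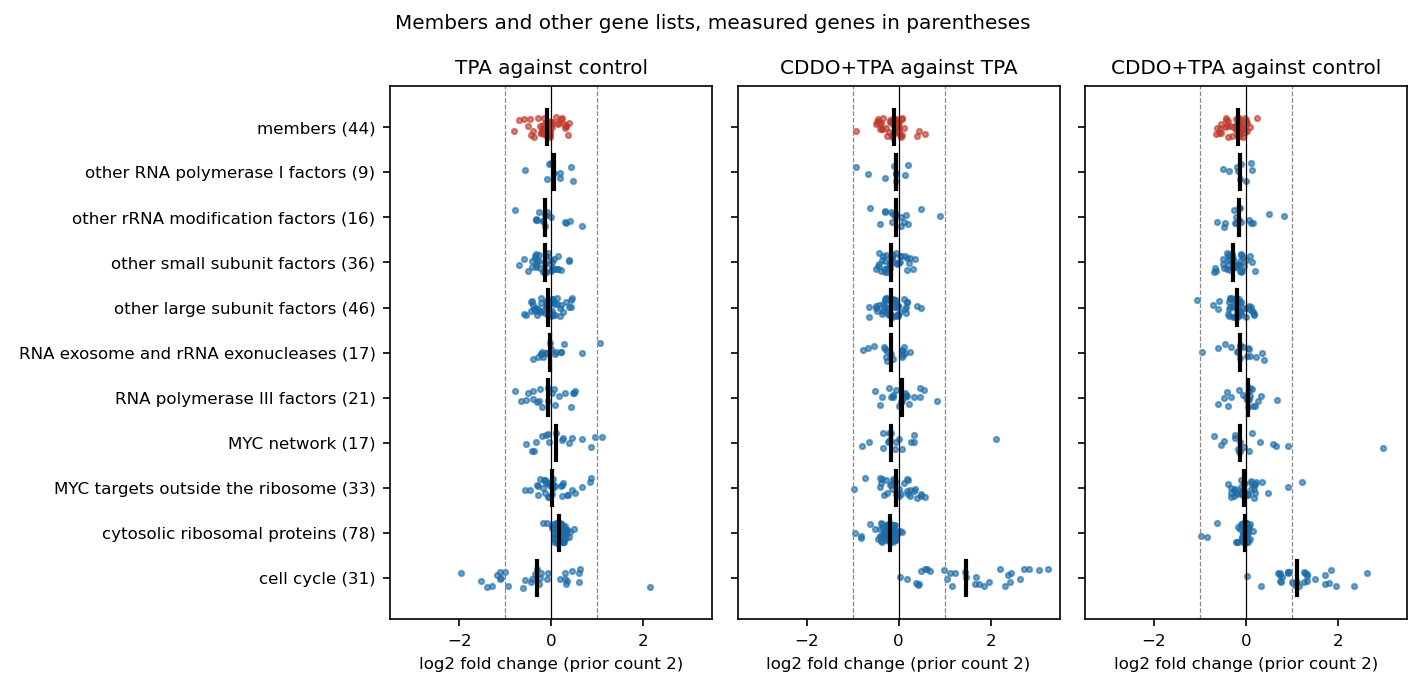
Log2 fold change (prior count 2) of the 44 members, in red, and of 10 other lists, in blue, 1 point per compared gene, with the number of genes in parentheses; black bars are medians and dashed lines 2-fold. Members and other ribosome lists cluster near 0 in all panels, whereas cell cycle genes have a median of 1.48 in CDDO+TPA against TPA.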

How the data were processed

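Total RNA of 3 JB6 P+ cultures was sequenced, 1 library per group. The deposited table holds raw read counts, 1 row per gene symbol, without normalization by the authors. Per the file headers, counts came from featureCounts 1.5.3 on a UCSC mm10 annotation, keeping primary alignments, with no strand option given. The submitters' processing notes name HISAT2, Picard and DESeq without a version, and deposited column names carry a mark of duplicate removal. Exonic bases per gene are the length column of the same table, per the file headers. The header lists 7 alignment files, and 3 count columns are present. The column named for CDDO was taken as CDDO+TPA, the single sample whose labels name CDDO; if it held another treatment, every value of CDDO+TPA would describe that one.

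TMM factors from edgeR 4.0.16 in R 4.3.3 (0.978, 1.02 and 1.00 for control, TPA and CDDO+TPA) scaled the totals. Folds are CPM ratios with exact conditional binomial 95% intervals, and log2 fold changes use a prior count of 2. Reads are not independent molecules, so intervals cover counting error. No p-values were computed, since groups have no replicates, and the calls describe libraries, not conditions. The interval and call steps were run on simulated counts that held counting error alone, the error the intervals assume. Such counts check the computation. They cannot show how the calls behave with spread between cultures or removal of duplicates. The members and lists were chosen with earlier results of these data known. All members are named by role; from other lists, up to 4 genes past 2-fold with at least 10 CPM. Symbols absent from the table were matched through RefSeq synonyms of GRCm38.p6, and promoter sequences are RefSeq's on that build; 35 of 44 members matched. Polr1f, Polr1g and Polr1h and 7 of 18 structural RNA names were not matched. Alternatives were other scalings, filters, prior counts, the denominator of the Rn45s share and the promoter window.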

Additional observations from a re-analysis of the deposited data

How the results depend on the processing

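With 1 library per group no library could be left out, and the spread between cultures is not known. No paired analysis was possible because each group holds a single library. Over the alternative scalings, filters and prior counts, the median log2 fold change of the members stayed below 0 in all 3 comparisons: -0.10 to -0.03 in TPA against control, -0.12 to -0.08 in CDDO+TPA against TPA, and -0.17 to -0.13 in CDDO+TPA against control. Counts past 2-fold stayed at 0. The count of members higher past 1.5-fold in CDDO+TPA against TPA went from 0 to 1 (Rrp1b, log2 fold change 0.58) with TMM factors over genes with at least 1 CPM, an alternative chosen after seeing the data. Rn45s in CDDO+TPA against control lost its 1.5-fold call under 5 settings, with log2 fold changes from -0.58 to -0.54. Counting only the bases before the start site, the E-box was in 5.71% of member promoters, against 6.86% of all genes in the table, so the higher share of members rests on bases after the start site. Scaled by upper quartile, Rn45s in TPA against control had a log2 fold change of -0.02, beside -0.09 in the main scaling. Ncl and Mybbp1a also moved by more than their counting error there. Ncl went from -0.11 to -0.05 and Mybbp1a from 0.21 to 0.27. The other counts stayed within 1.5 times, and no median changed sign. Of 1188 recomputed log2 fold changes of single members, 36 changed sign, each of them no larger than 0.06 in size and with a counting interval that held 1. In TPA against control, Nop2, Nol9, Wdr43, Heatr1, Gnl3 and Rrn3 turned positive with upper quartile scaling. Depth limits levels under 3 counts, about 0.38 CPM, which no member approached.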
